A study of Rattus norvegicus with 6 samples.

Results

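The genes described here encode adipose triglyceride lipase (Pnpla2) and the proteins that work with it at the lipid droplet, the organelle that stores neutral lipid. They are Abhd5, Lipe, Mgll, Plin2, Plin3, G0s2, Dgat1, Dgat2 and Lipa. Rows of the count table were taken where the gene symbol equalled one of these 10 names, and 9 of the 10 names had such a row among 20609 rows in all. Pnpla2 was chosen by its lower counts in PCBP-1 overexpressing cells (PCBP1-OE) in these same libraries, so its values are given as a description with no test. The other genes stand beside it by their roles.

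Stored triacylglycerol is broken down in steps. Pnpla2 removes the first fatty acid, the hormone-sensitive lipase Lipe acts mainly on the resulting diacylglycerol, and the monoglyceride lipase Mgll releases the last fatty acid. Abhd5 activates Pnpla2 and G0s2 inhibits it, while perilipins coat the droplet, Dgat1 and Dgat2 make triacylglycerol, and Lipa hydrolyses lipid that reaches the lysosome.

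The cells were labelled PC12, a rat line derived from an adrenal medullary tumor (pheochromocytoma). Poly-A RNA was sequenced in 3 libraries from cells with a control plasmid and 3 from cells overexpressing PCBP-1, which per the study's methods came from a plasmid with an EGFP tag, whereas the content of the control plasmid is not given. No genotype other than that of the line and no further treatment was named for either group. The 6 libraries held 19730209 to 22315623 counts on genes, with 7.53% to 8.42% on mitochondrially encoded genes. Pcbp1 was not among the gene names looked up, and its level in the 6 libraries was not examined. The paper reports raised PCBP-1 in PCBP1-OE cells, both as mRNA by RT-qPCR and as protein by western blotting.

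The labelled cell type was compared with markers. Of 7 chromaffin markers with a row, Dbh, Ddc, Chga, Chgb and Pnmt had under 10 counts in every library, Slc18a1 had 17 to 28 and Th had 141 to 185. Thus 5 of the 7 were at or near 0 in both groups, and Th, the rate-limiting enzyme of catecholamine synthesis, was not. Most of these markers therefore did not bear out the label, and the identity of the cells was not tested. Adipoq, the adiponectin gene, had 2111 to 2548 counts per library, although Lep, Cfd, Retn, Cidec and Fabp4 had under 10 in each. The fibroblast list summed to 224 to 229 CPM (reads of a gene scaled to a common library size) in controls and 199 to 211 in PCBP1-OE, nearly all of it Pdgfra, and the leukocyte list to 43.5 to 50.4 and 38.3 to 43.0 CPM. Most of the leukocyte sum was Cd14, whose own groups overlapped (36.6 to 42.5 CPM in controls, 31.9 to 36.9 CPM in PCBP1-OE), while Ptprc, Csf1r and Itgam had at most 6 counts per library. Cd3e had 52 to 79 counts and Cd68 had 56 to 81. The groups of Cd68 did not overlap (3.47 to 3.74 CPM in controls, 2.59 to 3.06 CPM in PCBP1-OE, adjusted p = 0.185, edgeR). Among the tested markers, the same held for Pdgfra, lower in PCBP1-OE (adjusted p = 0.0644, edgeR). It also held for Slc18a1, higher in PCBP1-OE (adjusted p = 0.296, edgeR). Groups did not overlap in 30.6% of all genes tested. Col1a1 of the fibroblast list had a log2 fold change of 0.10, and Dcn had at most 5 counts per library. Both sums were lower in every PCBP1-OE library than in every control, and their part in the results below was not tested. In such bulk samples, fewer cells of a type, less RNA per cell and a change of the gene that dominates a sum cannot be told apart. Whether leukocytes or fibroblasts were present at all was not tested.

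Pnpla2 (ENSRNOG00000047551, chromosome 1) was counted 52, 14 and 71 times in control replicates 1, 2 and 3 and 10, 9 and 10 times in the PCBP1-OE replicates. Scaled to CPM by the TMM method, which corrects library size for composition, these were 2.65, 0.671 and 3.17 CPM in controls and 0.454, 0.446 and 0.511 CPM in PCBP1-OE. All 3 PCBP1-OE libraries were low and close together, whereas control replicate 2 lay at 23.1% of the mean of the other 2 controls and 1.31 times the highest PCBP1-OE library. The groups thus did not overlap, but the gap between them was narrow at that one control. The means were 2.16 ± 1.32 CPM in controls and 0.47 ± 0.0352 CPM in PCBP1-OE (SD, n = 3 each), which gave a log2 fold change of -2.19, or a level 4.57-fold lower. Without control replicate 2 the log2 fold change was -2.61, and without control replicate 3 it was -1.80. The whole difference rested on 137 counts in controls against 29 in PCBP1-OE. It entered the analysis through its high group, since all 3 controls but 1 of 3 PCBP1-OE libraries reached the cutoff of 0.482 CPM that the filter on low counts set.

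**Figure D1:**
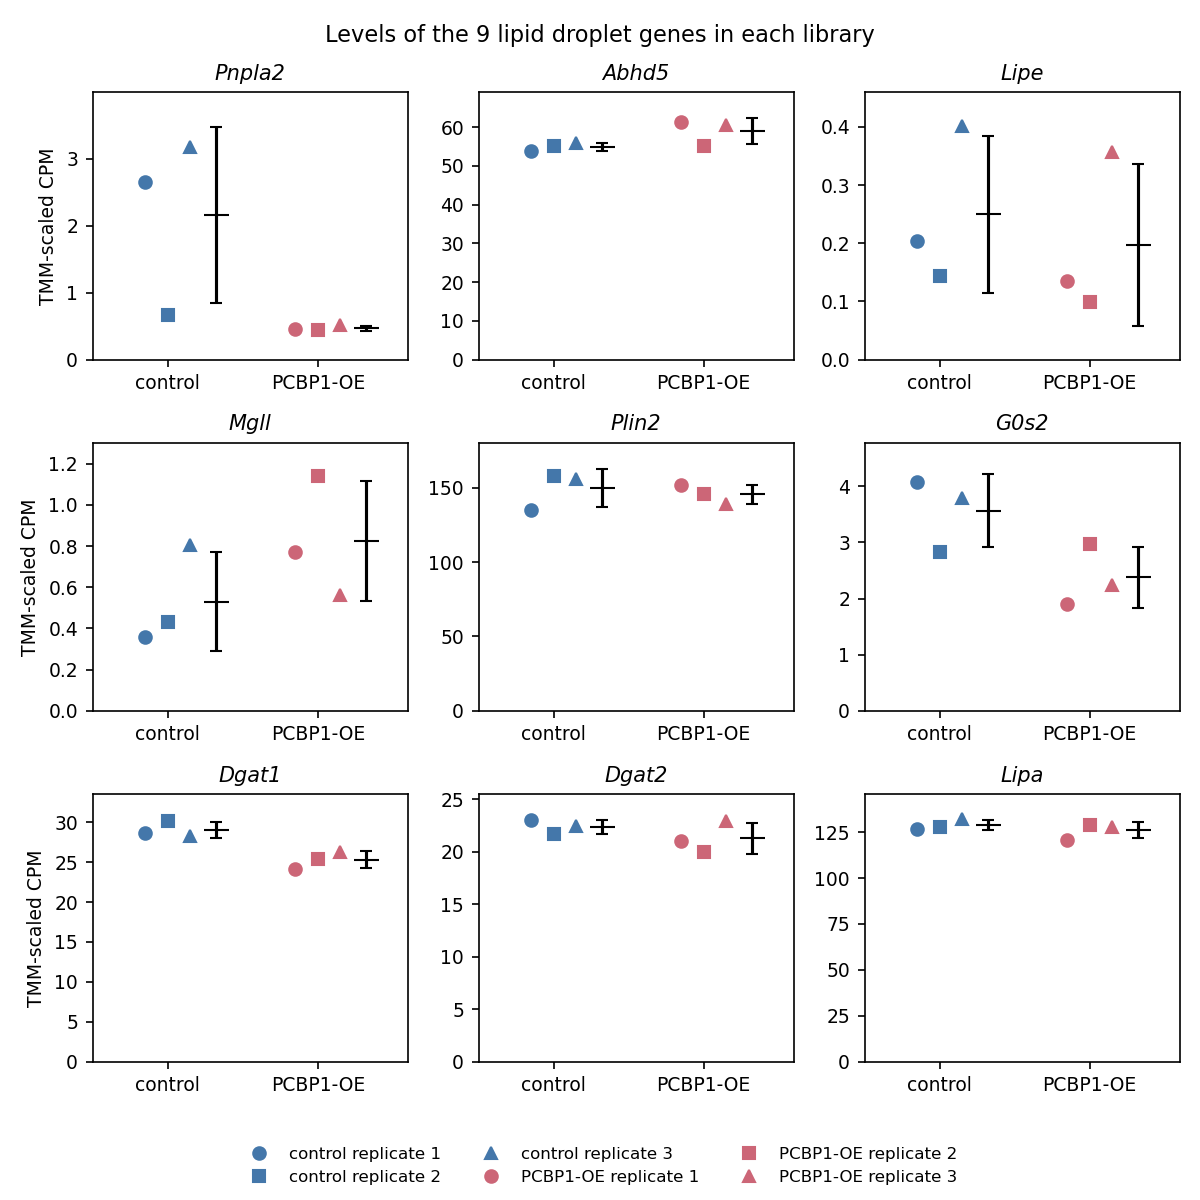
TMM-scaled CPM (y axis, from 0) of each of the 9 genes in the 3 control libraries (blue) and the 3 PCBP1-OE libraries (red), where the symbol gives the replicate and the black bar the mean ± SD. Pnpla2 is low in all 3 PCBP1-OE libraries and in control replicate 2, and most other genes lie at similar levels in both groups.

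The nearest protein-coding genes on either side of Pnpla2 were read in the same libraries. Rplp2, an acidic ribosomal protein gene and the next gene upstream in the RefSeq order of assembly GRCr8, had 771, 4 and 699 counts in controls against 574, 579 and 918 in PCBP1-OE. Its control replicate 2 was thus at 0.544% of the mean of the other 2 controls, and no PCBP1-OE library was low. A gene beyond it, the p53-induced death domain gene Pidd1, had 209, 181 and 205 counts in controls against 148, 143 and 162 in PCBP1-OE, with a log2 fold change of -0.37 (adjusted p = 0.0889, edgeR). On the other side, Cracr2b had at most 7 counts per library in either of its 2 rows, and the tetraspanin gene Cd151 had 200, 244 and 276 counts in controls against 267, 164 and 136 in PCBP1-OE (log2 fold change -0.33, adjusted p = 0.235, edgeR). Pidd1 was lower in every PCBP1-OE library than in every control, as was Pnpla2, but by a much smaller amount. Groups did not overlap in 30.6% of all genes tested, so this did not set Pidd1 apart. Rplp2, which lies between them, had overlapping groups and a log2 fold change of 0.52 (adjusted p = 0.624, edgeR). Among 6506 genes with a median of at least 500 scaled counts in the other 5 libraries, Rplp2 was the 1 gene for which control replicate 2 fell under 5% of that median, a screen chosen after the values were seen. Whether what lowered Rplp2 in that library also touched Pnpla2 was not tested.

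**Figure D2:**
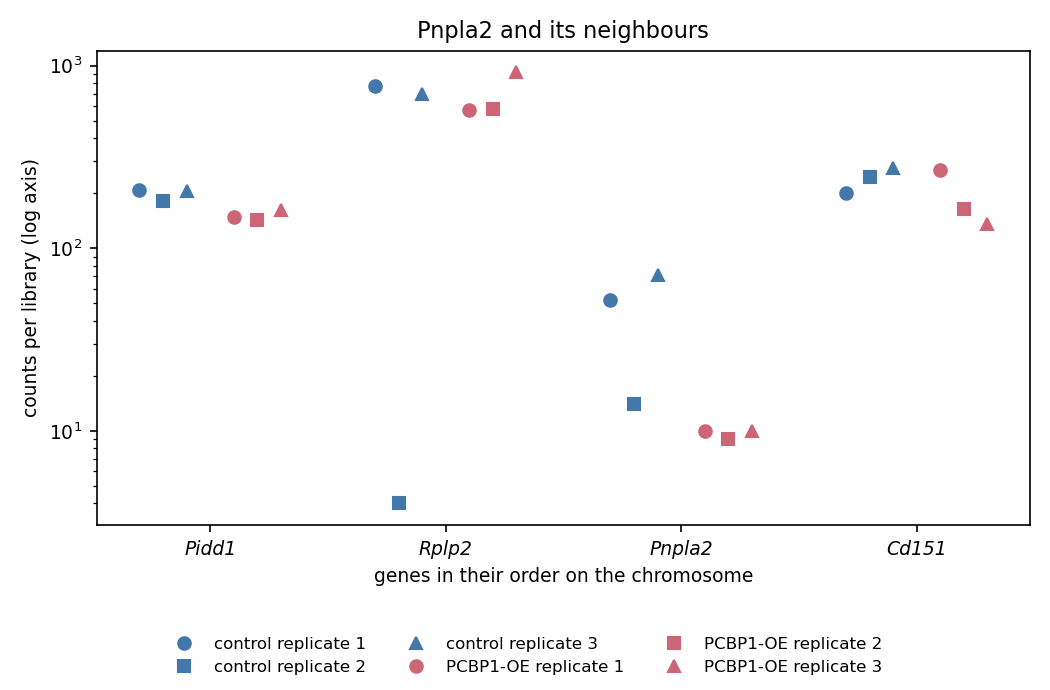
Counts per library (y axis, log scale) of Pnpla2 and of the neighbouring genes with one row each, in their order on the chromosome, with controls in blue, PCBP1-OE in red and a symbol per replicate. Control replicate 2 is the lowest point of Rplp2, at 4 counts, and the lowest control of Pnpla2, at 14 counts.

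The inhibitor of Pnpla2, G0s2 (ENSRNOG00000006019, chromosome 13), had 80, 59 and 85 counts in controls against 42, 60 and 44 in PCBP1-OE. As levels these were 4.08, 2.83 and 3.79 CPM against 1.91, 2.97 and 2.25 CPM, so that PCBP1-OE replicate 2 lay above control replicate 2 and the groups overlapped. The means were 3.57 ± 0.656 CPM in controls and 2.38 ± 0.545 CPM in PCBP1-OE (SD, n = 3 each). Its log2 fold change of -0.59 (95% interval -1.06 to -0.12) had an unadjusted p of 0.0187 and an adjusted p of 0.0986 by the quasi-likelihood test of edgeR, adjusted by Benjamini-Hochberg over all 12624 genes tested (0.0587 to 0.325 over the alternatives), and thus did not pass an FDR of 0.05.

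The stretches of 250 bases before the RefSeq start of these 2 genes are shown, since they are the lipase the list is built around and its inhibitor. Both are from GRCr8, read 5′ to 3′ on the strand of the gene, with the GC box GGGCGG on either strand in capitals. Pnpla2 lies at chr1:205982029-205982278, plus strand, and G0s2 at chr13:107335949-107336198, minus strand.
Pnpla2: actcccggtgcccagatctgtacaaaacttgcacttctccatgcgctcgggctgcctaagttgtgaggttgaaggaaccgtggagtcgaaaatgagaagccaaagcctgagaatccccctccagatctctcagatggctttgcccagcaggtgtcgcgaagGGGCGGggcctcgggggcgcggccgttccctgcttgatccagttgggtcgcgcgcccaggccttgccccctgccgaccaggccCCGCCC
G0s2: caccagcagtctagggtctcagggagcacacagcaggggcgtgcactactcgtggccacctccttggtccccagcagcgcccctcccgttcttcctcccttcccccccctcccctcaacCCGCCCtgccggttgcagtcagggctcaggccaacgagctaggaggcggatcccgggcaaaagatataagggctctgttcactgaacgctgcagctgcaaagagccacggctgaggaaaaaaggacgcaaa
Pnpla2 had 2 GC boxes, 89 and 6 bases before the start at their first base, and G0s2 had 1, at 131 bases. Such a box was found in 30.5% of the 33469 RefSeq windows of this length, so it did not set these genes apart. The G0s2 window also held a run of C that matches CCCCCC at 3 overlapping positions, which 14.1% of windows hold on either strand, and the Pnpla2 window held none. The Egr1 motif GCGNGGGCG, in 4.29% of windows, and the FoxO motif GTAAACA, in 3.21%, matched neither window, both strands searched. These matches describe the letters and were not tested for function.

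The activator Abhd5 (ENSRNOG00000000221, chromosome 8) was at 53.9, 55.1 and 55.9 CPM in controls and 61.3, 55.1 and 60.6 CPM in PCBP1-OE. Its PCBP1-OE replicate 2 lay within the controls and the other 2 above them. For Abhd5 the log2 fold change was 0.10 (95% interval -0.02 to 0.22, adjusted p = 0.243, edgeR), so any change of Abhd5 beyond 0.22 on the log2 scale lay outside the interval. Counts of 1056 to 1351 per library made it far better resolved than Pnpla2.

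The enzymes that follow Pnpla2 were sparsely counted. Lipe (ENSRNOG00000020546, chromosome 1) had 4, 3 and 9 counts in controls against 3, 2 and 7 in PCBP1-OE, 16 and 12 in all, and was left out of the test for low counts. Counts this low leave all but a large difference in Lipe unresolved. Mgll (ENSRNOG00000014508, chromosome 4) had 7, 9 and 18 counts in controls against 17, 23 and 11 in PCBP1-OE, and its groups overlapped. It passed the filter through the PCBP1-OE libraries, of which 3 reached the cutoff against 1 control. Its log2 fold change of 0.61 had a 95% interval of -0.28 to 1.51 (adjusted p = 0.354, edgeR), wide enough to hold both no change and more than a doubling.

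Among droplet coat genes, Plin2 (ENSRNOG00000007060, chromosome 5), the perilipin of most tissues, had 2654, 3294 and 3490 counts in controls against 3343, 2948 and 2717 in PCBP1-OE. As levels it was at 135, 158 and 156 CPM against 152, 146 and 139 CPM, with overlapping groups. Plin2 had a log2 fold change of -0.04 (95% interval -0.17 to 0.09, adjusted p = 0.703, edgeR), and its sign turned without control replicate 2 (0.0055) or PCBP1-OE replicate 3 (0.00026). Plin3, which coats nascent droplets, had no row under its symbol. RefSeq lists AABR07066529.1 as a synonym of it, a row that the table types as a pseudogene (ENSRNOG00000048462, chromosome 9), with 127, 148 and 189 counts in controls against 175, 150 and 118 in PCBP1-OE libraries. The log2 fold change was -0.04 (95% interval -0.36 to 0.28, adjusted p = 0.889, edgeR), and it was not counted among the 9 genes.

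Both enzymes of the last step of triacylglycerol synthesis were measured well. Dgat1 (ENSRNOG00000028711, chromosome 7) had 560, 630 and 634 counts in controls against 534, 513 and 515 in PCBP1-OE. Its levels of 28.6, 30.2 and 28.3 CPM in controls all lay above those of 24.2, 25.4 and 26.3 CPM in PCBP1-OE. For Dgat1 the log2 fold change of -0.20 (95% interval -0.35 to -0.04) had an unadjusted p of 0.0157 and an adjusted p of 0.0901 (edgeR; 0.0524 to 0.29 over the alternatives), which missed an FDR of 0.05. Dgat2 (ENSRNOG00000016573, chromosome 1), an unrelated enzyme with the same reaction, had 451, 452 and 503 counts in controls against 462, 404 and 448 in PCBP1-OE. The groups of Dgat2 overlapped, with a log2 fold change of -0.07 (95% interval -0.25 to 0.11, adjusted p = 0.611, edgeR). The difference between the 2 enzymes was not tested.

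Lipa (ENSRNOG00000019077, chromosome 1), the lysosomal acid lipase, overlapped between the groups. It was at 127, 128 and 132 CPM in controls and 121, 129 and 128 CPM in PCBP1-OE libraries. The log2 fold change was -0.04 (95% interval -0.13 to 0.06, adjusted p = 0.614, edgeR).

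**Figure D3:**
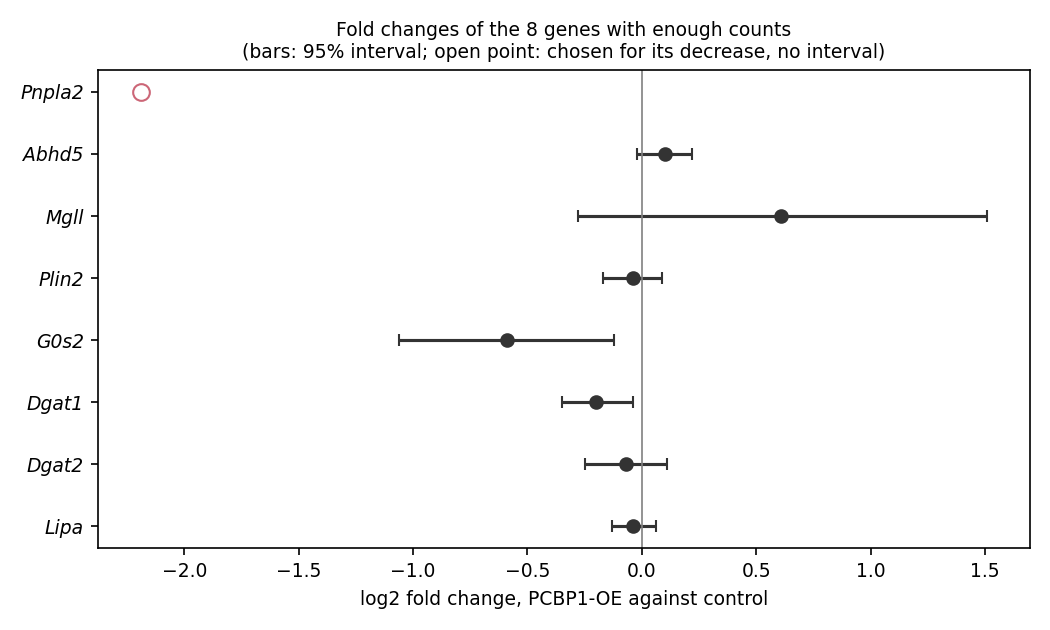
Log2 fold change of PCBP1-OE against control (x axis) for the 8 genes with enough counts, with 95% intervals from the edgeR fit as bars. The open point is Pnpla2 at -2.19, chosen for its decrease and drawn with no interval, and the other 7 genes lie between -0.59 and 0.61.

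Of the 8 genes other than Pnpla2 with a row, 7 were tested, and 0 passed an FDR of 0.05 by edgeR, where 9.45% of all genes tested did (4.45% higher and 5.0% lower in PCBP1-OE). At a change of at least 2-fold the share of all genes was 0.19%, with 0.0317% lower. DESeq2, with 11.2% of all genes called, and limma-voom, with 9.48%, also called 0, although DESeq2 gave Mgll no adjusted p. An unadjusted p under 0.05 was reached by 2 of 7, Dgat1 and G0s2, against 28.4% of all genes, and groups did not overlap in 1 of 7, Dgat1, against 30.6%. Of the 7 genes, 2 had a log2 fold change above 0 and 5 below, with a median of -0.04 beside 0.0029 over all genes.

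A wider list of 95 genes in 6 groups placed these genes in their pathway, of which 93 were matched to a single row and 75 had enough counts. By edgeR, 6 of the 75 passed an FDR of 0.05 (8.0%, beside 9.45% of all genes), 2 higher and 4 lower in PCBP1-OE. The median log2 fold change of the 75 was 0.024.

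In triacylglycerol and sterol ester synthesis, 3 of 19 tested genes fell and 0 rose (15.8% called, beside 9.45% of all genes). Of all genes, 5.0% were called lower. An unadjusted p under 0.05 (edgeR) was reached by 5 of the 19, beside 28.4% of all genes. Groups did not overlap in 6 of the 19, beside 30.6%. Of the 19, 11 had a log2 fold change above 0 and 8 below, with a median of 0.021. All 3 genes that fell encode 1-acylglycerol-3-phosphate acyltransferases, which add the second fatty acid on the way to phosphatidic acid. Agpat1 was at 149, 149 and 148 CPM in controls and 122, 133 and 124 CPM in PCBP1-OE (log2 fold change -0.24, adjusted p = 0.0124, edgeR). Agpat2 was at 54.4, 51.5 and 49.8 CPM against 43.2, 41.9 and 44.5 CPM (log2 fold change -0.27, adjusted p = 0.0178, edgeR). Agpat4 was at 86.1, 90.8 and 80.9 CPM against 69.7, 72.9 and 74.8 CPM (log2 fold change -0.25, adjusted p = 0.0179, edgeR). In each of the 3 genes every PCBP1-OE library lay below every control, where groups did not overlap in 30.6% of all genes. The decreases were small, 1.18-fold to 1.20-fold. The remaining family members Agpat3 (log2 fold change -0.17, adjusted p = 0.0928) and Agpat5 (0.08, adjusted p = 0.357) did not pass by the same edgeR test. Glycerol-3-phosphate acyltransferases, lipins, Gk and the acyl-CoA synthetases had 0 calls.

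Of 12 tested genes of droplet coat and formation, 1 fell and 0 rose (8.33% called, beside 9.45% of all genes). This was Bscl2, which encodes seipin, the protein that shapes the sites where droplets bud from the endoplasmic reticulum. It was at 24.4, 24.0 and 19.7 CPM in controls and 18.2, 18.7 and 16.6 CPM in PCBP1-OE, with a log2 fold change of -0.35 (95% interval -0.56 to -0.13, adjusted p = 0.0455, edgeR). Control replicate 3 lay near the PCBP1-OE range. With upper-quartile scaling Bscl2 missed the FDR of 0.05 (0.0567; 0.00239 to 0.192 over the alternatives). Plin1, the perilipin of adipocytes, had at most 12 counts in any library and Plin5 at most 2.

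Of 9 tested acylglycerol hydrolases and cofactors, 1 rose and 0 fell (11.1% called, beside 9.45% of all genes). Pnpla8, a calcium-independent phospholipase of the same patatin family as Pnpla2, was at 11.7, 11.1 and 15.5 CPM in controls and 18.9, 18.7 and 18.3 CPM in PCBP1-OE libraries. The log2 fold change was 0.55 (95% interval 0.29 to 0.80, adjusted p = 0.0184, edgeR), a direction opposite to that of Pnpla2. Hilpda, an inhibitor of Pnpla2 induced by hypoxia, had 63, 75 and 78 counts in controls against 66, 68 and 70 in PCBP1-OE (log2 fold change -0.05, 95% interval -0.42 to 0.31, adjusted p = 0.868, edgeR). Lpl, the lipoprotein lipase, had 6, 4 and 3 counts in controls against 1, 0 and 1 in PCBP1-OE, too few for the test, and is named after its values were seen.

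**Figure D4:**
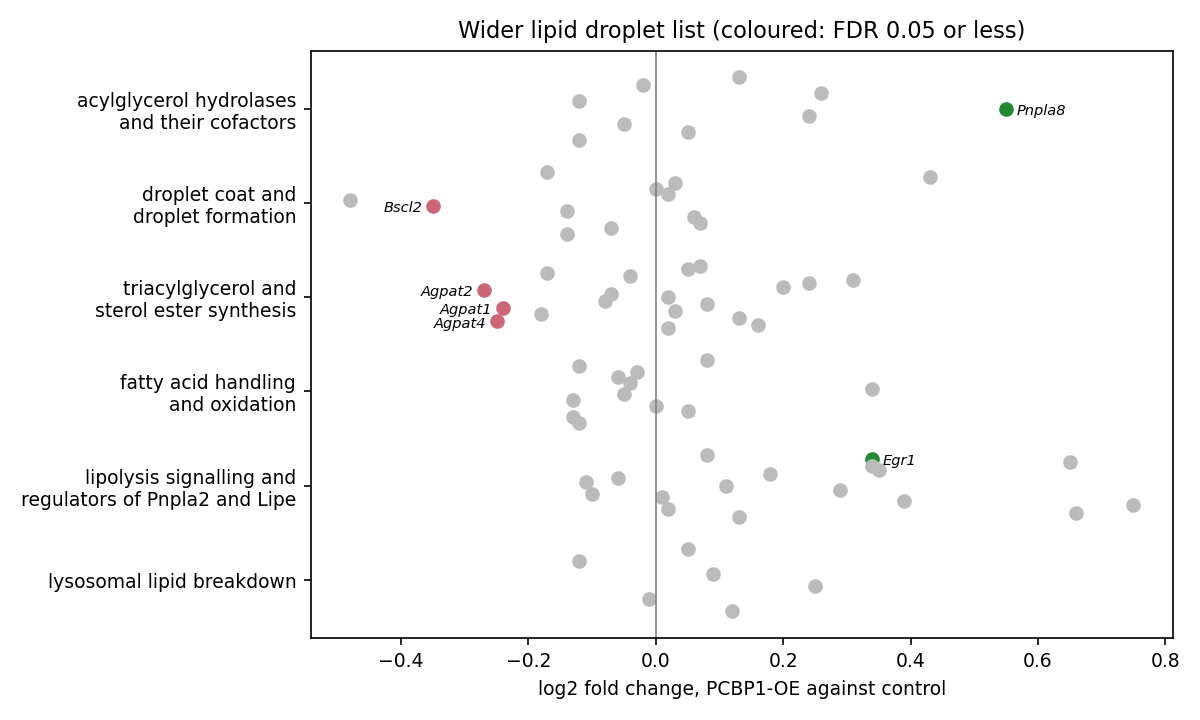
Log2 fold change of PCBP1-OE against control (x axis) for the 75 tested genes of the wider list, one point per gene, in 6 groups (rows), with genes at an FDR of 0.05 or less in green (higher) or red (lower). Pnpla8 at 0.55 and Egr1 at 0.34 were called higher, and Bscl2 at -0.35 and the 3 Agpat genes at -0.24 to -0.27 were called lower.

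Among 17 tested genes of lipolysis signalling and of the regulation of Pnpla2 and Lipe, 1 rose and 0 fell. Egr1, an immediate early transcription factor known to repress Pnpla2 in adipocytes, was at 31.3, 26.6 and 26.1 CPM in controls and 34.3, 36.5 and 35.1 CPM in PCBP1-OE (log2 fold change 0.34, 95% interval 0.17 to 0.50, adjusted p = 0.0221, edgeR). Foxo1, which activates Pnpla2 transcription, was at 2.60, 1.72 and 3.52 CPM in controls and 3.86, 5.30 and 4.08 CPM in PCBP1-OE libraries. The log2 fold change of 0.75 (95% interval 0.23 to 1.26) had an adjusted p of 0.0644 (edgeR), while DESeq2 gave 0.0407, the fit without a filter 0.0042 and the fit without control replicate 3 0.0052 (0.0042 to 0.231 over the alternatives). Sirt1, a deacetylase of FoxO factors, had a log2 fold change of 0.35 (adjusted p = 0.180, edgeR), and Pparg, a nuclear receptor that drives Pnpla2 in adipocytes, had 1 count in PCBP1-OE replicate 3 and 0 elsewhere. The median log2 fold change of the group was 0.181, with 14 of 17 genes above 0, beside 0.0029 and 6370 of 12624 over all genes. Its 1 call, a rise, made up 5.88% of the group, beside 9.45% of all genes called and 4.45% called higher. Of the 17 genes, 6 had an unadjusted p under 0.05 (edgeR), beside 28.4% of all genes. Groups did not overlap in 7 of them, beside 30.6%. No gene was called by edgeR at an FDR of 0.05 among 12 of fatty acid handling and oxidation or among 6 of lysosomal lipid breakdown. An unadjusted p under 0.05 was reached by 0 of the 12 and by 2 of the 6, beside 28.4% of all genes.

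These 6 calls depended on which libraries entered the fit. Leaving out control replicate 1, 2 or 3 left 1, 0 or 18 genes of the wider list past an FDR of 0.05. Leaving out PCBP1-OE replicate 1, 2 or 3 left 0, 1 or 5 (edgeR; 14 at an unadjusted p under 0.05 in both fits with 0). Without control replicate 2 the adjusted p of the 6 genes was 0.0785 to 0.192, and without PCBP1-OE replicate 1 it was 0.0718 to 0.138. Without control replicate 1 only Egr1 passed, and without PCBP1-OE replicate 2 only Agpat1. Without PCBP1-OE replicate 3, Bscl2 (0.116) and Agpat1 (0.0540) did not pass. The direction of each of the 6 genes was the same in all 6 of these fits.

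**Figure D5:**
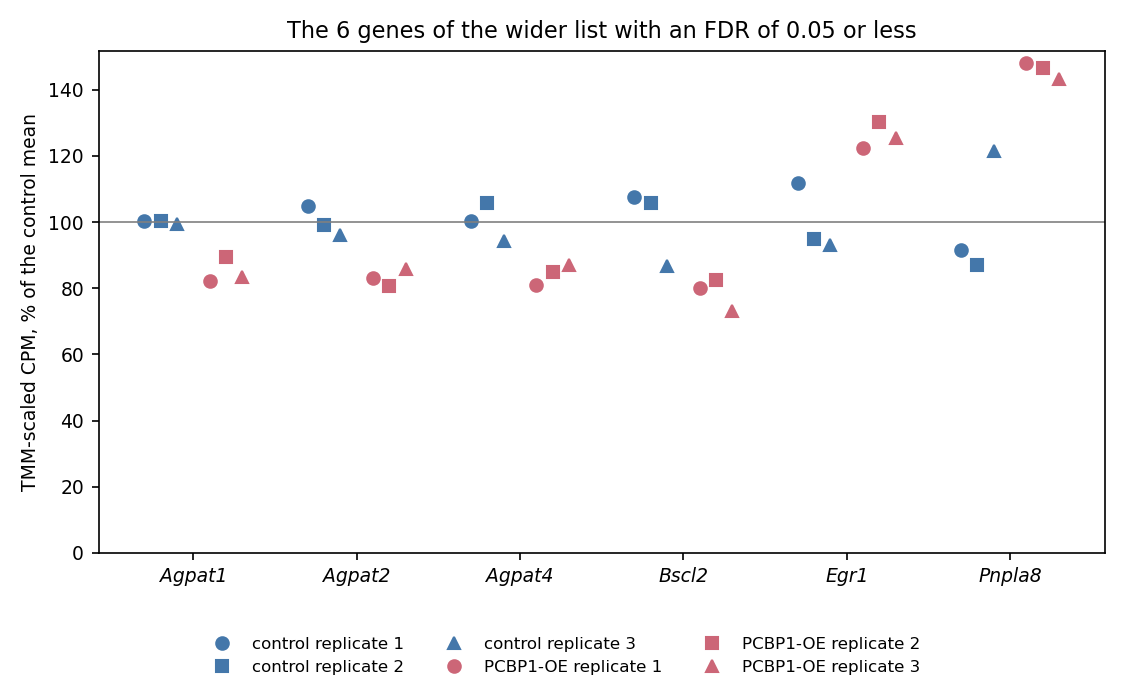
TMM-scaled CPM of the 6 called genes as a percent of the mean of the 3 controls (y axis, from 0), with controls in blue, PCBP1-OE in red and a symbol per replicate. All 3 PCBP1-OE libraries lie below the controls for the Agpat genes and Bscl2 and above them for Egr1 and Pnpla8, with control replicate 3 of Bscl2 and of Pnpla8 nearest to the other group.

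The genes whose pattern was most like that of Pnpla2 were sought over all 12623 other genes tested, by Pearson's r of log2 CPM across the 6 libraries. Among the closest were Lrrc59 (r = 0.989), Hnrnpul1 (0.978), Slc45a1 (0.976) and Dnajc3 (0.966). In each of these 4 control replicate 2 was the lowest control, as in Pnpla2, which a choice by likeness over the same libraries favours. Their changes were much smaller, with log2 fold changes of -0.06, -0.05, -0.23 and -0.09 in that order. Across 6 libraries 88 genes had an r of at least 0.9, and these values describe likeness of shape only, over libraries that share the same groups.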

How the data were processed

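Whole-number read counts per gene, as deposited by the authors, were used for 6 libraries, 3 per group, each mapped to its column by its own title. Per the study's methods, TopHat2 aligned the trimmed reads to Rnor_6.0, a rat build, and unique alignments were counted; how reads were assigned to genes, and with which strand option, is not given in the sources used here. Counts of overlapping genes are therefore uncertain. The submitters' processing notes name GRCh38, a human build, although the gene identifiers are of rat. The labels and the methods also name different library kits.

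In the present computation, edgeR 4.0.16 (R 4.3.3) was run with TMM scaling, filterByExpr (minimum count 10, minimum total count 15; 12624 genes kept, 7985 left out) and its quasi-likelihood test, with Benjamini-Hochberg adjustment over all genes tested. Levels are TMM-scaled CPM. Intervals are 95% intervals of the fitted log2 fold change. The study calls the libraries of a group biological replicates, but the labels do not say whether they came from separate cultures; p-values measure the spread between these samples. Names were matched by symbol, or for 5 of the wider list by a RefSeq synonym (GRCr8, used for names, gene order and the sequences shown); 7 of the 10 listed genes had a sequence window. Without gene lengths, levels were not compared between genes.

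The members and lists were chosen with earlier results of these data known. Named genes are the listed ones, the called genes of the wider list with Hilpda, Bscl2, Foxo1, Sirt1, Egr1 and Pparg, the 2 nearest coding genes on each side of Pnpla2, and the 5 genes most like it, of which 1 is not reported here. Lpl, Agpat3, Agpat5, Plin1, Plin5, Rps6 and Atp5f1 lie outside this rule and were named after their values were seen, and cell type markers are named as a check of the label. Alternatives comprised DESeq2 1.42.0, limma-voom, scaling by RLE or by the upper quartile, no filter, a minimum of 1 CPM in 3 libraries, the replicate number as a block, plain CPM for levels, and omission of single libraries. The fit was tested on counts simulated with a dispersion common to all genes and log2 fold changes of 1 or 2 either way. It recovered 97% and 100% of these, with 4.37% false among its calls. Smaller changes, such as those called in the wider list, and genes of uneven spread were not simulated. Changed genes were drawn above a floor of mean counts, so changes in genes as sparsely counted as Mgll and Lipe were not simulated either.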

Additional observations from a re-analysis of the deposited data

How the results depend on the processing

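Among all genes, 1193 passed an FDR of 0.05 and 24 of them changed at least 2-fold, and these counts moved with the processing. They were 2090 and 72 with no filter and 16 and 4 with the replicate number as a block, while DESeq2 gave 10 at 2-fold. With 1 library left out they ranged from 48 to 2860 and from 5 to 83. Upper-quartile scaling split the calls into 655 higher and 427 lower, against 562 and 631 with TMM. For the wider lipid droplet list the count of 6 became 11 with no filter and 0 with the block (edgeR; 12 genes at an unadjusted p under 0.05), and 0 to 18 with 1 library left out. None of the genes listed beside Pnpla2 passed in any fit that gave it an adjusted p, which for Mgll excludes DESeq2 and the filter of at least 1 CPM. The log2 fold change of Pnpla2 stayed between -2.61 and -1.80 over the libraries left out and was -1.88 with limma-voom; with the filter of at least 1 CPM it had no value. Plin2 turned in sign, at 0.0055 without control replicate 2 and 0.00026 without PCBP1-OE replicate 3, in a range from -0.10, and so did Hilpda at 0.02 without PCBP1-OE replicate 1. DESeq2 gave Mgll no adjusted p, at a log2 fold change of 0.63. The deviations of same-numbered libraries from their group means had correlations of -0.0776, -0.0514 and -0.0428, beside -0.00757 to 0.0602 for differently numbered ones. With 3 libraries per group such values cannot show whether same-numbered libraries were handled together. Why calls were lost with the block was not tested. A fit with fewer libraries has fewer degrees of freedom. The count over all genes was 2860 without control replicate 3 and 48 without control replicate 2, and the cause of these shifts was not tested. Depth limited Pnpla2, Lipe and Mgll, each with at most 71 counts per library.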

Other observations

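Other abundant genes besides Rplp2 were far lower in 1 or 2 libraries, in the same screen for genes with a median of at least 500 scaled counts in the other 5 libraries and under 5% of it in 1. Rps6, a ribosomal protein gene, had 5788, 5487 and 6464 counts in controls against 264, 4444 and 4881 in PCBP1-OE. Atp5f1, a subunit of the mitochondrial ATP synthase, had 804, 642 and 41 counts in controls against 1228, 1107 and 29 in PCBP1-OE, so that the third library of each group was low. The screen found 0 to 1 gene per library among 6479 to 6506 genes.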
